A study of Mus musculus with 12 samples.

Results

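NMDA receptors are glutamate-gated cation channels that also need glycine or D-serine to open. The obligatory GluN1 subunit, which binds glycine, assembles with GluN2 subunits that bind glutamate and set the kinetics and magnesium block of the channel, and in some neurons with GluN3 subunits, which bind glycine and lower calcium entry. Delta receptors are related in sequence but act mainly as synaptic adhesion proteins, joined through secreted cerebellins to presynaptic neurexins. The RNAs of 8 such subunits were followed in glutamatergic neurons of the mouse hypothalamus and midbrain: Grin1, Grin2a, Grin2b, Grin2c, Grin2d, Grin3a, Grin3b and Grid1. They were chosen by gene symbol from the 32531 genes of the count tables, and all 8 passed the filter on low counts that left 18128 genes for testing.

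The RNA came from adult Slc17a6-EGFP/Rpl10a (JX883) transgenic mice, in which a ribosomal protein fused to EGFP is placed under Slc17a6, the gene of the vesicular glutamate transporter VGLUT2. In translating ribosome affinity purification, polysomes that carry the tag are pulled from a tissue homogenate with antibodies against EGFP, and their RNA is sequenced (IP). The 4 groups were hypothalamus IP, hypothalamus input, midbrain IP and midbrain input, each with 3 libraries, where input is the RNA of the same tissue without purification. All 4 groups carried the transgene and none was treated. The labels did not give sex, an exact age, or whether a library came from 1 animal or from pooled animals, and no IP from untagged animals is among them. The p-values therefore measure the spread between these libraries, which may be technical. The 3 libraries of a group bore the numbers 1 to 3.

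Libraries held between 41909019 and 55148109 reads assigned to genes, so that 3 reads, the limit that a count of 0 allows, correspond to 0.0537 to 0.0710 counts per 1000000 reads (CPM, after scaling by the trimmed mean of M values). Slc17a6 averaged 2118 ± 1227 CPM (SD, n = 3) in hypothalamus IP and 349 ± 154 CPM in its input, and 2738 ± 1087 CPM in midbrain IP against 775 ± 402 CPM in its input. All 11 astrocyte markers fell in the IPs of both regions, with summed levels of 303 to 411 CPM in hypothalamus IP against 1391 to 2607 CPM in its input, and 431 to 456 CPM in midbrain IP against 1759 to 2869 CPM in its input. Markers of thalamic neurons, a region that no label names, were present in all libraries, with sums from 471 to 1235 CPM in hypothalamus input up to 3141 to 5349 CPM in midbrain IP. Libraries numbered 1 stood apart: Slc17a6 was highest there in each of the 4 groups, and of reads assigned to genes 12.3% and 12.5% fell to the ribosomal RNA repeat Rn45s in the IPs numbered 1, against 5.21% to 6.85% in the other IPs. Of the 8 subunits, Grin1, Grin2a, Grin2d, Grin3a, Grin3b and Grid1 were likewise highest in the library numbered 1 of every group, a pattern shown by 11.7% of the genes tested. Results that change without these 4 libraries are given with that value.

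Levels between genes were compared per kilobase of merged exon length. Grin1 and Grin3a led in all 4 groups. In hypothalamus IP Grin1 stood at 8.47 ± 5.23 CPM per kilobase (SD, n = 3) and Grin3a at 7.27 ± 2.63, and their libraries overlapped. Grin2b followed at 2.44 ± 0.942 and Grid1 at 2.28 ± 1.08 CPM per kilobase, again with overlapping libraries, and neither reached any library of Grin3a. Below them Grin2d stood at 0.857 ± 0.611 and Grin2a at 0.541 ± 0.509 CPM per kilobase, overlapping each other, then Grin2c at 0.110 ± 0.1004 and Grin3b at 0.0162 ± 0.0232. The GluN2 gene with the highest level was thus Grin2b, with Grin2d, Grin2a and Grin2c below it.

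The order was much alike in midbrain IP, where Grin1 stood at 14.6 ± 5.16, Grin3a at 9.96 ± 2.33, Grid1 at 4.24 ± 0.957 and Grin2b at 3.71 ± 0.514 CPM per kilobase. Grin2d at 1.75 ± 0.817, Grin2c at 1.08 ± 0.624 and Grin2a at 0.815 ± 0.0361 CPM per kilobase formed the next tier, in which neighbours overlapped, and Grin3b was lowest at 0.118 ± 0.0663. In hypothalamus input Grin3a at 7.08 ± 4.48 and Grin1 at 6.92 ± 2.84 CPM per kilobase could not be ordered, and in midbrain input Grin1 at 10.8 ± 0.737 lay above Grin3a at 6.90 ± 2.61 in every library. Grin2c took rank 7 of 8 in hypothalamus IP, rank 6 in hypothalamus input and midbrain IP, and rank 5 in midbrain input. In midbrain input it overlapped Grin2d and lay above it in 1 of 3 libraries, and per kilobase of the longest coding transcript it took rank 6. The length used bore on the order at the top. The longest coding transcript is 4276 bases for Grin1 against 9700 of merged exons, and per kilobase of it Grin1 was above Grin3a in all 12 libraries. In hypothalamus IP Grin1 then came to 19.2 ± 11.9 and Grin3a to 11.9 ± 4.31 CPM per kilobase. With merged exons Grin1 was above Grin3a in 1 of 3 libraries there. The order of the group means changed in hypothalamus input only.

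**Figure D1:**
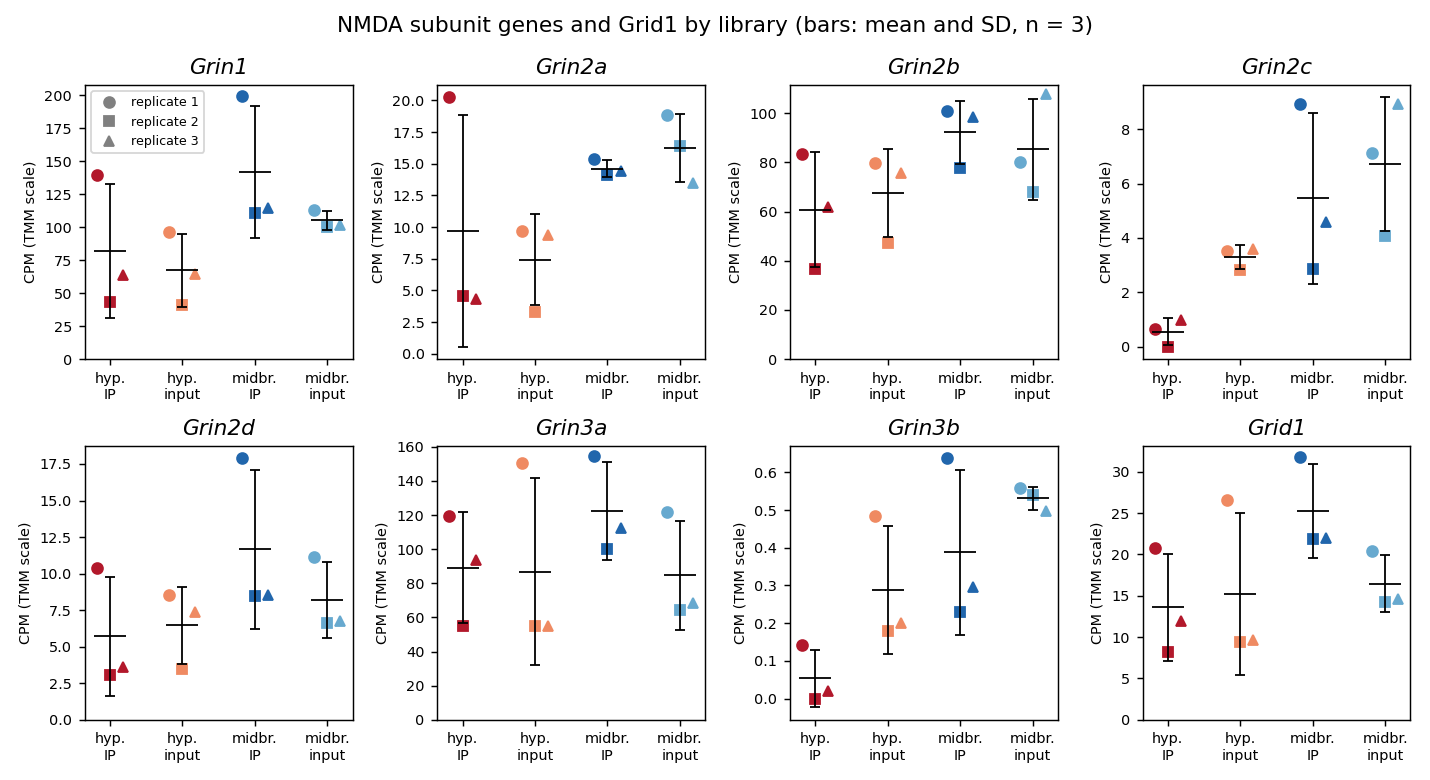
Level of each of the 8 subunit genes in the 12 libraries, in CPM on a linear axis that differs between panels, by group; circles, squares and triangles are libraries 1, 2 and 3, and lines with bars are the mean and SD of 3 libraries. Grin2c is at 0.665, 0 and 0.993 CPM in hypothalamus IP, below every library of the other groups, while for 6 of the 8 genes the circle lies on top in all 4 groups.

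Expressed as a share of the summed per-kilobase level of the 7 Grin genes, Grin1 made up 41.6% ± 5.32 (SD, n = 3) in hypothalamus IP, 36.9% ± 2.70 in hypothalamus input, 45.1% ± 2.96 in midbrain IP and 44.1% ± 4.41 in midbrain input. Grin3a made up 38.5% ± 5.79, 36.1% ± 8.43, 31.4% ± 1.69 and 27.3% ± 5.89 in the same order of groups. Grin2b held 12.8% ± 1.55, 15.3% ± 3.50, 11.98% ± 2.34 and 14.0% ± 3.62. The share of Grin2c was 0.518% ± 0.564 in hypothalamus IP against 3.82% ± 1.17 in hypothalamus input, 3.21% ± 0.969 in midbrain IP and 5.36% ± 1.83 in midbrain input. A share does not depend on how libraries are scaled, but it does depend on the exon lengths: with coding transcript lengths Grin1 rises to 52.5% ± 5.68 in hypothalamus IP and Grin2b drops to 7.40% ± 1.03.

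**Figure D2:**
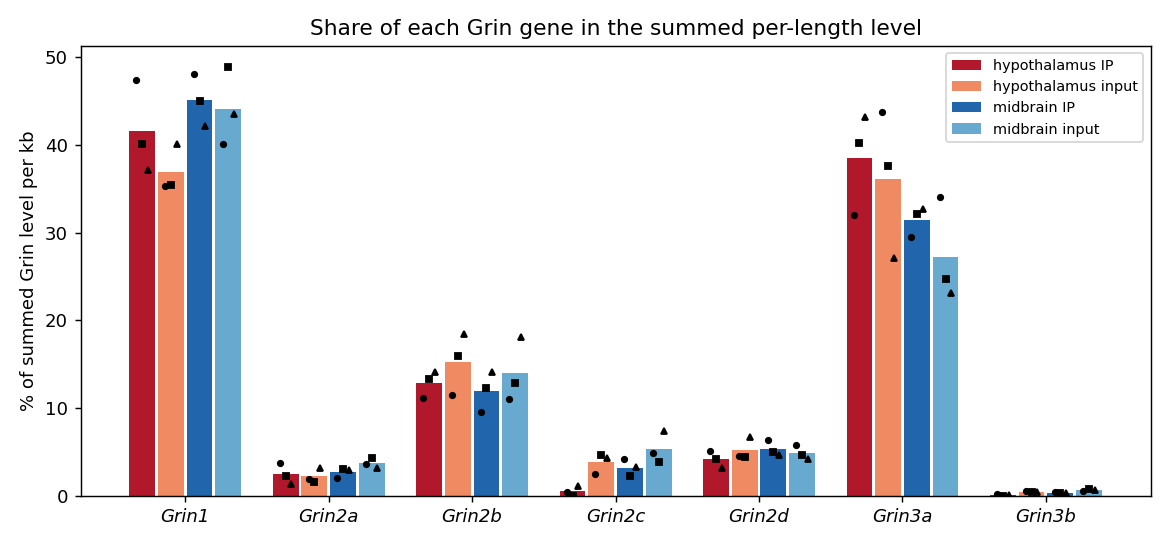
Share of each of the 7 Grin genes in their summed level per kilobase of merged exons, in percent; bars are group means of 3 libraries, and circles, squares and triangles are libraries 1, 2 and 3. Grin1 and Grin3a have the tallest bars in each group, and the Grin2c points are at most 1.12% in the hypothalamus IPs against at least 2.22% elsewhere.

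The first question was whether subunit RNAs were enriched on tagged ribosomes relative to the whole tissue. In the hypothalamus 1 of the 8 genes passed edgeR's quasi-likelihood test at an adjusted p under 0.05, Grin2c, which fell; 33.8% of all genes tested passed, 14.2% higher and 19.6% lower. The remaining 7 had log2 fold changes between -2.40 and 0.38, and their median with Grin2c was -0.16 against -0.082 over all genes. In the midbrain 0 of 8 passed, against 33.9% of all genes, and 0 of 8 had an unadjusted p under 0.05, against 43.9%; the median log2 fold change was 0.27 against -0.047 over all genes. DESeq2 and limma-voom also called 0 of 8 in the midbrain, against 38.8% and 36.3% of genes. A replicate block, which gave each number the same term in both regions, called 2, Grin3a and Grid1, against 43.9% of genes. Same-numbered IP and input of a region shared a sequencing lane that differed between the regions, so this block did not follow the lane. Leaving out the libraries numbered 1 called 1, Grin3a, against 30.0%. The sequencing index was one for the IPs and a different one for the inputs, and its part cannot be told apart from that of the purification. In bulk RNA, fewer cells of a type and less RNA per cell cannot be told apart, and an IP reading similar to its input does not show that the gene is used equally by other cells.

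Grin1 encodes GluN1, without which NMDA receptors do not form (chr2:25291181-25319187, minus strand, mm10). Its level in libraries 1, 2 and 3 was 139.6, 43.5 and 63.4 CPM in hypothalamus IP, 96.0, 41.1 and 64.3 CPM in hypothalamus input, 199, 111 and 115 CPM in midbrain IP, and 113, 100.5 and 102 CPM in midbrain input. IP and input overlapped in both regions, and the IPs numbered 1 were the highest of their groups by a wide margin. The log2 fold change of IP over input was 0.29 (SE 0.40, edgeR adjusted p = 0.615) in the hypothalamus and 0.43 (SE 0.40, adjusted p = 0.444) in the midbrain. Exons of Grin1os lie on the opposite strand of Grin1; its own count was 0 in hypothalamus IP and at most 1.18 CPM in any library, and reads that fall on both genes were not resolved here.

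Among the GluN2 genes, Grin2b, whose product gives slowly decaying currents and predominates early in development, had the highest level (chr6:135713233-136173511). It read 83.6, 36.8 and 61.7 CPM in hypothalamus IP and 79.9, 47.2 and 75.7 CPM in hypothalamus input. In the midbrain it read 101, 77.6 and 98.5 CPM in IP and 80.2, 67.9 and 108 CPM in input. All groups overlapped their counterpart. Its IP over input was the most narrowly bounded of the 8, at -0.16 (95% interval -0.78 to 0.47, adjusted p = 0.719) in the hypothalamus and 0.11 (-0.51 to 0.74, adjusted p = 0.798) in the midbrain, on the log2 scale.

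Grin2a, whose product gives fast-decaying currents and rises with maturation in many brain regions (chr16:9567898-9995560), differed widely between the hypothalamus IPs. There it read 20.2, 4.55 and 4.31 CPM, against 9.70, 3.28 and 9.34 CPM in input, so the single library numbered 1 set the group mean. In midbrain IP it read 15.3, 14.1 and 14.4 CPM, against 18.9, 16.4 and 13.5 CPM in input. The log2 fold change of IP over input was 0.38 (SE 0.54, adjusted p = 0.628) in the hypothalamus, and -0.51 without the libraries numbered 1 (adjusted p = 0.388); in the midbrain it was -0.15 (SE 0.54, adjusted p = 0.857).

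Grin2d encodes GluN2D, which gives very slow currents with weak magnesium block and is known mainly from the diencephalon, brainstem and interneurons (chr7:45831883-45878378). Its levels were 10.4, 3.08 and 3.63 CPM in hypothalamus IP, 8.52, 3.47 and 7.39 CPM in hypothalamus input, 17.9, 8.49 and 8.55 CPM in midbrain IP, and 11.2, 6.61 and 6.74 CPM in midbrain input. The midbrain IP was above the input of the same number in all 3 numbers, but the groups overlapped. Neither difference passed, at -0.18 (SE 0.50, adjusted p = 0.818) in the hypothalamus and 0.51 (SE 0.50, adjusted p = 0.473) in the midbrain.

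Grin2c encodes GluN2C, which gives low-conductance channels and is best known from cerebellar granule cells (chr11:115249169-115267243, minus strand). In hypothalamus IP it had 33, 0 and 53 reads in libraries 1 to 3, which is 0.665, 0 and 0.993 CPM. Hypothalamus input held 167, 157 and 178 reads, or 3.52, 2.81 and 3.58 CPM, so every input library was above every IP library, as in one direction or the other for 46.9% of genes tested. In midbrain IP it had 421, 148 and 217 reads (8.95, 2.84 and 4.59 CPM) against 372, 197 and 378 reads (7.15, 4.08 and 8.94 CPM) in midbrain input, and these overlapped. Grin2c fell in hypothalamus IP, from a mean of 3.30 ± 0.429 CPM in input to 0.553 ± 0.506 CPM (SD, n = 3), a log2 fold change of -2.58 (SE 0.88, 95% interval -4.48 to -0.67, edgeR adjusted p = 0.0389); lower in 3 of 3 same-numbered libraries. In the midbrain the change was -0.30 (SE 0.81, adjusted p = 0.808).

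The Grin2c call in the hypothalamus stood near the threshold, and adjusted p over the alternatives ran from 0.00504 with DESeq2 to 0.143 without the libraries numbered 1. Without hypothalamus IP 1 it was 0.0603, without hypothalamus input 1, 2 or 3 it was 0.0707, 0.0650 and 0.0773, and without midbrain input 1 or 3 it was 0.0546 and 0.0543; with only the hypothalamus libraries fitted it was 0.126. Without hypothalamus IP 2, where the count was 0, the log2 fold change was -1.99 (adjusted p = 0.0198). In the libraries in which Grin2c was low, the astrocyte marker Aqp4 was 2.32 ± 0.572 CPM against 74.2 ± 29.7 CPM in hypothalamus input, and in the midbrain it was 8.31 ± 2.43 CPM in IP against 149.5 ± 45.3 CPM in input. The part of astrocyte RNA in the Grin2c result was not tested. Summed cerebellar neuron markers were 404 to 765 CPM in hypothalamus IP against 172 to 322 CPM in its input, and 229 to 606 CPM in midbrain IP against 130.4 to 279 CPM in its input. Of the 7 of 8 markers tested, 2 rose and 0 fell in hypothalamus IP, where 14.2% of all genes rose and 19.6% fell: Calb1 by 1.496 (SE 0.18, adjusted p = 9.36e-05) and Neurod1 by 1.52 (SE 0.36, adjusted p = 0.00665) on the log2 scale. In hypothalamus IP the largest parts of the sum were Calb1, at a mean of 309 CPM, and Zic1, at 146 CPM. Cbln3 averaged 0.781 CPM in hypothalamus IP against 0.421 CPM in its input, and Pcp2 0.174 against 0.574 CPM. The granule cell marker Gabra6 was at 0 in all 3 hypothalamus IPs and at most 0.0710 CPM in any library. The part of cerebellar RNA in the Grin2c result was not tested.

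The GluN3 genes lay at opposite ends of the range. Grin3a encodes GluN3A, which lowers the calcium permeability of NMDA receptors and is most abundant in the young brain (chr4:49661611-49845744). It read 119, 55.1 and 93.5 CPM in hypothalamus IP, 150.4, 55.2 and 55.0 CPM in hypothalamus input, 155, 100.1 and 112 CPM in midbrain IP, and 122, 64.2 and 68.3 CPM in midbrain input. IP and input overlapped in both regions, although each midbrain IP was above the input of its own number. The log2 fold change was 0.039 (SE 0.41, adjusted p = 0.953) in the hypothalamus, where scaling by library size alone gave -0.12, and 0.53 (SE 0.41, adjusted p = 0.350) in the midbrain. Without the libraries numbered 1 the midbrain difference was 0.68 with an adjusted p of 0.0350, and with the replicate block it was 0.58 with an adjusted p of 0.0235.

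Grin3b encodes GluN3B, known mostly from motor neurons of the brainstem and spinal cord (chr10:79970715-79977190, plus strand). Its counts were 7, 0 and 1 reads in hypothalamus IP, 23, 10 and 10 in hypothalamus input, 30, 12 and 14 in midbrain IP, and 29, 26 and 21 in midbrain input. Libraries 2 and 3 of hypothalamus IP were under the limit of 3 reads. The IP libraries lay below all inputs there, with at most 7 against at least 10 reads. Groups did not overlap, in one direction or the other, for 46.9% of genes tested. The log2 fold change of -2.40 (SE 1.09) did not pass in edgeR (adjusted p = 0.112), passed in DESeq2 (adjusted p = 0.0441) and limma-voom (0.0337), and passed in edgeR without hypothalamus IP 1 (-4.62, adjusted p = 0.0196). Exons of Tmem259 overlap Grin3b on the opposite strand, and without a known strand setting the reads of the genes cannot be told apart. Predicted genes overlap Grin2b, Grin2c and Grin2d in the same way. HTSeq set aside as ambiguous 1.37% to 2.00% of all reads in the IPs and 4.03% to 16.2% in the inputs; the part of this in the Grin3b result was not tested.

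Grid1 encodes the delta receptor GluD1, which binds cerebellins (chr14:34820108-35583379, plus strand). It read 20.7, 8.17 and 11.9 CPM in hypothalamus IP and 26.5, 9.41 and 9.67 CPM in hypothalamus input, which overlapped. In the midbrain it read 31.8, 21.9 and 22.0 CPM in IP and 20.4, 14.3 and 14.6 CPM in input, so that all 3 IPs lay above all 3 inputs; the same held, in either direction, for 48.9% of genes tested. The differences between same-numbered midbrain libraries were 0.64, 0.61 and 0.59 on the log2 scale. Over libraries the midbrain log2 fold change was 0.62 (SE 0.42, 95% interval -0.30 to 1.53, adjusted p = 0.284). With the replicate block it was 0.61 and passed (adjusted p = 0.0402). In the hypothalamus it was -0.16 (SE 0.42, adjusted p = 0.803).

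**Figure D3:**
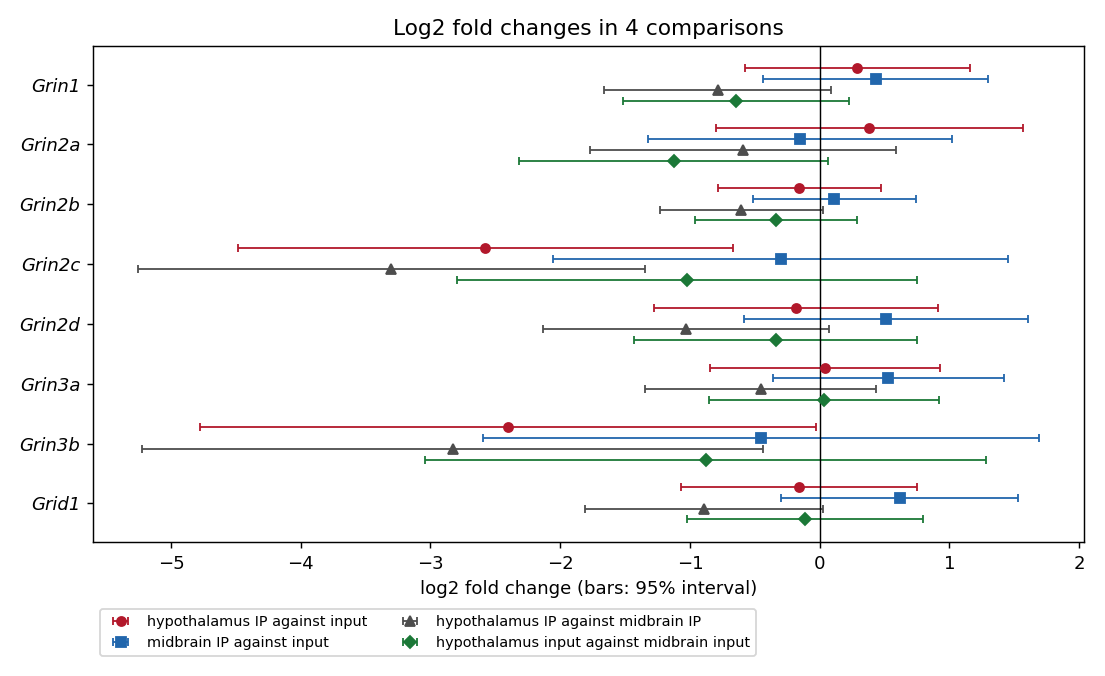
Log2 fold change of the 8 subunit genes (x axis) with 95% intervals, for IP against input in each region and for hypothalamus against midbrain in each fraction, from the fit across all genes. The fall of Grin2c in hypothalamus IP against input, at -2.58, is the only change shown that passed after adjustment, and all 8 triangles of hypothalamus IP against midbrain IP lie below 0.

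Whether enrichment differed between the regions was tested as the difference of the 2 fold changes. None of the 8 passed in edgeR, against 0.0772% of genes tested, and 0 of 8 had an unadjusted p under 0.05, against 6.56%; DESeq2 called 0 as well, against 1.17%. Grin2c had the lowest adjusted p, 0.808, with a difference of -2.28 (95% interval -4.83 to 0.28). The fall of Grin2c in hypothalamus IP is therefore not shown to differ from the midbrain value.

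The second question was whether subunit RNAs on tagged ribosomes differed between the regions. All 8 genes were lower in hypothalamus IP than in midbrain IP, with a median log2 fold change of -0.84 against 0.014 over all genes, but 0 of 8 passed in edgeR without a block, against 4.26% of genes tested. An unadjusted p under 0.05 was reached by 2, Grin2c and Grin3b, against 18.1% of genes tested, and DESeq2 called 1, Grin2c, against 9.93%. With the replicate block Grin1, Grin2b, Grin2c, Grin2d and Grid1 passed in edgeR, at adjusted p from 0.00711 to 0.0219, against 11.2% of genes tested. Libraries did not overlap for Grid1, Grin2c and Grin3b, as for 18.5% of genes tested. This comparison shares the hypothalamus IP libraries with that against hypothalamus input.

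Grin2c was -3.30 (SE 0.90, 95% interval -5.25 to -1.35, edgeR adjusted p = 0.0629) on the log2 scale between the IPs, and -2.71 (adjusted p = 0.0307) without hypothalamus IP 2. Grin3b was -2.83 (SE 1.10, adjusted p = 0.192), from at most 7 against at least 12 reads. Grin2d was -1.03 (SE 0.51, adjusted p = 0.311) and Grid1 was -0.89 (SE 0.42, adjusted p = 0.289). Grin1 was -0.79 (SE 0.40, adjusted p = 0.330), Grin2b -0.60 (SE 0.29, adjusted p = 0.297), Grin2a -0.59 (SE 0.54, adjusted p = 0.626) and Grin3a -0.45 (SE 0.41, adjusted p = 0.618).

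These values depended on the libraries numbered 1. Without all 4 of them Grin1 was -1.08 (adjusted p = 0.0254) and Grid1 -1.13 (adjusted p = 0.0282), and both passed, against 4.55% of genes. Without hypothalamus IP 1 alone Grin1 was -1.41 (adjusted p = 0.0441) and Grin2a -1.72 (adjusted p = 0.0344). Summed thalamic markers were 873 to 2878 CPM in hypothalamus IP and 3141 to 5349 CPM in midbrain IP, of which Tcf7l2 alone averaged 695 and 2071 CPM. Of these 8 markers 0 passed between the IPs, against 4.26% of genes tested. Summed astrocyte markers were also higher in midbrain IP, where 1 of 11 passed. Of 11 oligodendrocyte markers 5 were lower in hypothalamus IP and 0 higher. The part of any of these in the differences of the subunits was not tested. Region and sequencing lane cannot be told apart within a number.

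In the inputs 0 of 8 passed in edgeR, against 1.61% of genes tested, and 0 of 8 had an unadjusted p under 0.05, against 11.2%; DESeq2 and limma-voom called 0 as well, against 4.29% and 2.11%. Grin2a was -1.13 (SE 0.55, adjusted p = 0.485) in hypothalamus against midbrain input, Grin2c -1.02 (SE 0.82, adjusted p = 0.791), Grin3b -0.88 (SE 0.99, adjusted p = 0.895) and Grin1 -0.65 (SE 0.40, adjusted p = 0.654). Libraries did not overlap for these 4, as for 22.1% of genes tested. Grin2b and Grin2d were both at -0.34 and Grid1 at -0.12. Grin3a was at 0.036 (SE 0.41), and lay on the other side of 0 at -0.27 without the libraries numbered 1, at -0.091 with limma-voom and at -0.049 with a replicate block.

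Ratios of subunits within a library do not depend on scaling, and were tested for 6 pairs in 2 contrasts, 12 exact two-sided permutation tests with the labels exchanged within region or within fraction. None passed after Benjamini-Hochberg adjustment. The smallest p this design can give is 0.005, which is adjusted to 0.06 over 12 tests when no other test comes near it. A single ratio could therefore not pass alone, and the lack of a pass does not show that a ratio was unchanged. The summed GluN2 genes stood at 0.484 ± 0.0508 per Grin1 (SD, n = 3) in hypothalamus IP, with 0.430, 0.491 and 0.531 in the libraries, against 0.713 ± 0.120 in input, with 0.580, 0.747 and 0.813. In the midbrain the ratio was 0.456, 0.503 and 0.589 in IP against 0.631, 0.527 and 0.754 in input. It was lower in IP in 6 of 6 same-numbered libraries, with a mean log2 difference of -0.42 (exact p = 0.015, adjusted p = 0.06). With coding transcript lengths the means were 0.234, 0.342, 0.250 and 0.307 in the same order.

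Grin3a per Grin1 was 0.675, 1.00 and 1.17 in hypothalamus IP and 1.24, 1.06 and 0.675 in hypothalamus input. In midbrain IP it was 0.612, 0.713 and 0.773, and in midbrain input 0.848, 0.505 and 0.532. Hypothalamus was above midbrain in 6 of 6 same-numbered libraries of one fraction, by 0.53 on the log2 scale (exact p = 0.04, adjusted p = 0.12). IP and input differed in it by 0.065 (exact p = 0.77, adjusted p = 0.930). Without the libraries numbered 1 they differed by 0.43 (exact p = 0.111, adjusted p = 0.222).

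Grin2c per Grin2b averaged 0.0404 ± 0.0394 in hypothalamus IP, 0.249 ± 0.0406 in hypothalamus input, 0.283 ± 0.137 in midbrain IP and 0.382 ± 0.0752 in midbrain input. It was lower in IP than in input, with a log2 difference of -2.24 (exact p = 0.015, adjusted p = 0.06), made of -3.97 in the hypothalamus and -0.52 in the midbrain. It was lower in hypothalamus than in midbrain, with a log2 difference of -2.34 (exact p = 0.005, adjusted p = 0.06). Because hypothalamus IP 2 had no Grin2c read, these sizes depend on the 0.5 added to each count, and without that library they were -1.32 and -1.42.

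Grin2a per Grin2b, a ratio that follows the switch from slow to fast receptors during maturation, was 0.201 ± 0.122 in hypothalamus IP, 0.145 ± 0.0424 in hypothalamus input, 0.222 ± 0.0261 in midbrain IP and 0.278 ± 0.0909 in midbrain input. The regions differed by -0.62 on the log2 scale (exact p = 0.095, adjusted p = 0.228). Without hypothalamus IP 1 they differed by -0.85 (exact p = 0.005, adjusted p = 0.03), where Grin2c to Grin2b had the same p. Grin2d per Grin2b averaged between 0.333 and 0.466 in the 4 groups and Grid1 per Grin1 between 0.253 and 0.356. For both ratios neither contrast passed, the lowest adjusted p being 0.617.

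**Figure D4:**
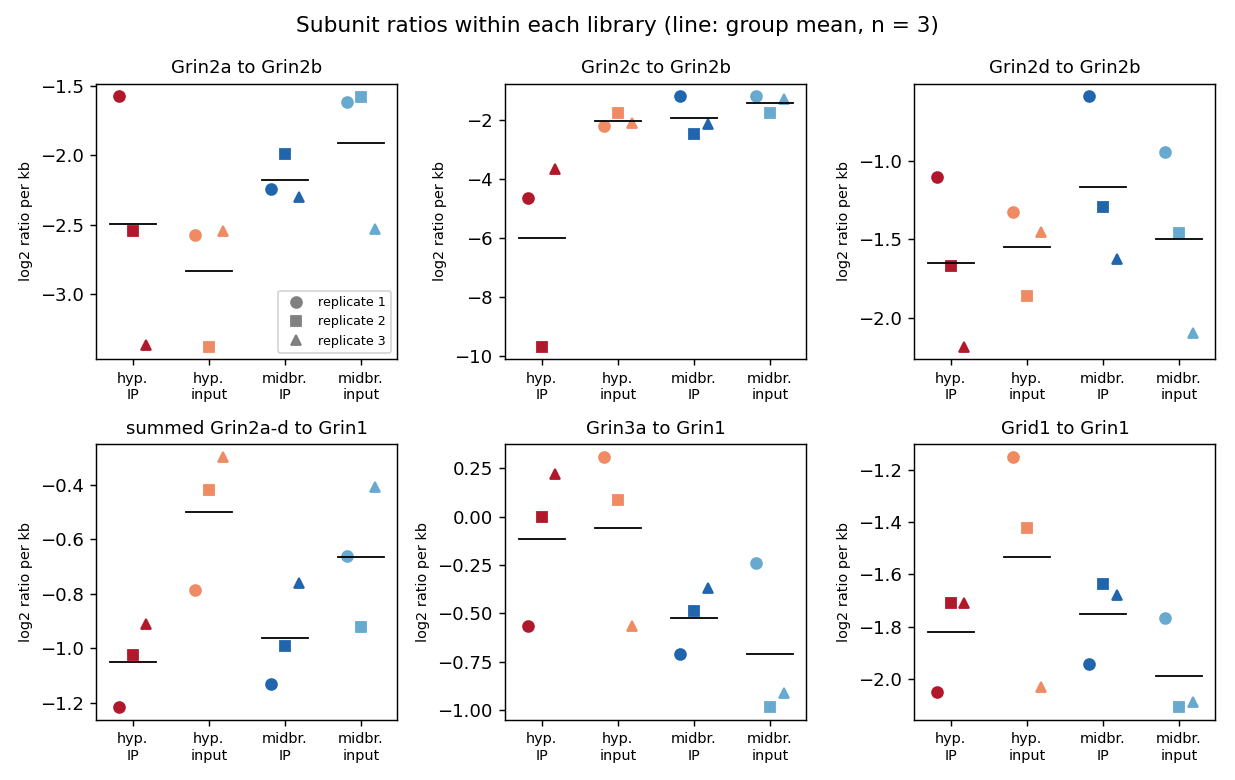
Log2 ratios of subunit levels per kilobase in each of the 12 libraries, by group, with a y axis that differs between panels; circles, squares and triangles are libraries 1, 2 and 3 and lines are means of 3. The summed GluN2 genes to Grin1 lie lower in IP than in input in each region on average, and the low point of Grin2c to Grin2b in hypothalamus IP is library 2, with a Grin2c count of 0.

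The genes whose log2 profile over the 12 libraries was closest to a subunit, each centred on its own mean, were searched among 10380 genes by root mean square difference. For Grin1 they were Wscd1 (0.150) and Adam11 (0.160), for Grin2b the calcium channel gene Cacna1c (0.126) and the potassium channel gene Kcnma1 (0.158), and for Grin2d Faah (0.162) and Mmp24 (0.187). For Grin3a they were B3galnt1 (0.152) and Nomo1 (0.181), and for Grid1 Sirpa (0.170) and Tmem63b (0.177). Grin2a had no neighbour as near, with Sort1 at 0.376 and the potassium channel gene Kcna2 at 0.382. The nearest genes to Grin2c were Adamts4 (1.29) and the metabotropic glutamate receptor gene Grm3 (1.46), and to Grin3b Sall1 (0.722) and Grm3 (0.743). Between subunits the smallest differences were 0.230 for Grin3a with Grid1, 0.266 for Grin1 with Grin2d and 0.278 for Grin1 with Grid1. These are descriptions over 12 libraries that share the high levels of the libraries numbered 1.

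Partners of the receptors were counted in lists chosen by function, with the same tests. Over all genes tested 14.2% rose and 19.6% fell in hypothalamus IP, and 14.0% rose and 19.9% fell in midbrain IP; the counts that follow stand beside these shares, and nothing particular to a list was tested. The 9 AMPA and kainate subunits, the other ionotropic glutamate receptors, had 0 that rose and 3 that fell in hypothalamus IP (19.6% of all genes fell), with a median log2 fold change of -0.84, and 0 that passed in the midbrain (33.9% of all genes passed), with a median of 0.016. Grik1 fell by 1.56 (SE 0.35, adjusted p = 0.00510) and Gria3 by 1.41 (SE 0.29, adjusted p = 0.00306) in the hypothalamus. The same genes were the 2 of 9 that passed between the IPs (4.26% of all genes), where they were lower in the hypothalamus, Grik1 by -1.38 (adjusted p = 0.0466) and Gria3 by -1.28 (adjusted p = 0.0282).

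Of 15 postsynaptic scaffold genes 2 rose and 3 fell in hypothalamus IP, and 3 rose and 1 fell in midbrain IP; of all genes 33.8% and 33.9% passed. Dlgap4, a scaffold protein of the postsynaptic density, rose by 0.68 (SE 0.20, adjusted p = 0.0200) and 0.73 (SE 0.20, adjusted p = 0.0141). Dlg4, which encodes PSD-95 and binds GluN2 tails, rose by 0.48 (SE 0.16, adjusted p = 0.0352) in the hypothalamus. Dlgap3 rose by 1.04 (SE 0.31, adjusted p = 0.0203) in the midbrain. Dlg1, which encodes SAP97, fell by 0.91 (SE 0.21) and 0.78 (SE 0.21) in the hypothalamus and midbrain, at adjusted p = 0.00518 and 0.0119. Homer3 fell by 2.80 (SE 0.80, adjusted p = 0.0181) in the hypothalamus, from a low level of 0.928 CPM in input to 0.131 CPM in IP.

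Among 14 kinases, phosphatases and enzymes at the receptor 2 rose and 2 fell in the hypothalamus, and 6 rose and 1 fell in the midbrain, where 14.0% of all genes rose and 19.9% fell. Ptpn5, which encodes the phosphatase STEP that removes GluN2B phosphate, rose by 0.52 (SE 0.17, adjusted p = 0.0312) in the hypothalamus and 0.82 (SE 0.17, adjusted p = 0.00294) in the midbrain. Fyn, a kinase of GluN2 tails, rose by 0.43 in the hypothalamus (SE 0.13, adjusted p = 0.0243), and Dapk1, a death-associated kinase, by 0.79 in the midbrain (SE 0.20, adjusted p = 0.00830). Camk2g, a calcium/calmodulin-dependent kinase, fell by 0.60 and 0.64. Nos1, which makes nitric oxide downstream of the receptor, averaged 34.3 CPM in hypothalamus IP and 14.1 CPM in midbrain IP (log2 fold change 1.28, SE 0.30, adjusted p = 0.0334).

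Of 11 trafficking and auxiliary genes 3 rose and 1 fell in the hypothalamus, and 3 rose and 0 fell in the midbrain, beside the same shares. The gene that fell was Neto1, by 0.56 (SE 0.20, adjusted p = 0.0478). Lin7b and Apba1, which belong to a complex that carries GluN2B along dendrites, rose by 1.27 (SE 0.16, adjusted p = 0.000160) and 0.91 (SE 0.14, adjusted p = 0.000538) in the hypothalamus, and by 1.25 (SE 0.16, adjusted p = 0.000187) and 0.45 (SE 0.14, adjusted p = 0.0272) in the midbrain. Of 11 genes that make or move glycine and D-serine, 0 rose in either region, 4 fell in the hypothalamus and 5 in the midbrain, where 19.6% and 19.9% of all genes fell. Phgdh, the first enzyme of serine synthesis, fell by 3.37 (SE 0.71) and 3.55 (SE 0.71), and Slc7a10, which carries D-serine, fell by 3.35 (SE 0.66) and 3.22 (SE 0.65); adjusted p lay between 0.00238 and 0.00346. Astrocyte markers also fell in both IPs, as given above. So did 11 of 11 oligodendrocyte markers and 9 of 10 microglia markers in each region, with 0 that rose. The part of any of these cell types in the result was not tested.

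Of 7 cerebellins and neurexins, partners of delta receptors, 2 rose and 1 fell in hypothalamus IP, and 4 rose and 0 fell in midbrain IP, where 14.2% and 14.0% of all genes rose. Cbln1 rose by 1.77 (SE 0.37, adjusted p = 0.00314) in the hypothalamus, from 57.4 to 196 CPM. Cbln2 rose by 1.35 (SE 0.29, adjusted p = 0.00402) in the hypothalamus and by 1.81 (SE 0.30, adjusted p = 0.000781) in the midbrain, and Cbln4 by 1.48 (SE 0.34, adjusted p = 0.00577) in the midbrain. Nrxn3 fell by 1.02 (SE 0.27, adjusted p = 0.0119) in hypothalamus IP, where it averaged 94.3 CPM against 270.0 CPM in midbrain IP (log2 fold change -1.52, SE 0.27, adjusted p = 0.00897). None of these lists had a gene that passed the test of the regional difference.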

How the data were processed

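The authors deposited 1 table of raw read counts per gene symbol for each of 12 libraries; per the submitters' processing notes, reads were aligned to mm10 with STAR 2.0.0e and counted with HTSeq. The annotation, strand setting and counting mode are not given in the sources used here. The 5 summary rows were left out of library sizes.

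Counts were tested with edgeR 4.0.16 (robust quasi-likelihood F test) over 4 group means, after filterByExpr and scaling by the trimmed mean of M values, with Benjamini-Hochberg adjustment over all 18128 genes. Standard errors are the log2 fold change over the root of F. Exon lengths and coordinates are from GENCODE M21. Scripts were tested on simulated data. Alternatives were other scalings and filters, DESeq2 1.42.0, limma-voom 3.58.1, replicate blocks, fits of 2 groups, leaving out each library, and, added after seeing the data, leaving out the 4 libraries numbered 1.

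Same-numbered libraries deviated together, with every r over 0.1, for hypothalamus IP with input (0.115 to 0.257) and for the inputs of both regions (0.127 to 0.318). For midbrain IP with input (0.0670 to 0.153) and for the IPs (0.0805 to 0.222) not every r was over 0.1. Their same-number r was still above every different-number r over all pairs of groups (-0.179 to 0.0390). The main test used no block, and results with the replicate block are given beside it. Per the labels, IP and input of one region and number shared a sequencing lane.

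The members and lists were chosen with earlier results of these data known. Named genes were the 8 members, the 2 nearest profiles of each at 5 CPM or more, and genes from the lists. The latter were taken from the up to 2 genes per direction and list with the largest change among those that passed. Not all of these are named.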

Additional observations from a re-analysis of the deposited data

How the results depend on the processing

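Rescaling, other filters, the other tools, fits of 2 groups, leaving out Rn45s and blocking kept the direction of the 8 genes in each comparison they could be run on, except for Grin3a near 0. Grin3a in hypothalamus IP against input was -0.12 with library size alone, and between the inputs it was -0.091 with limma-voom, -0.049 with the replicate block and -0.27 without the libraries numbered 1. Leaving out those 4 libraries also turned Grin2a (-0.51) and Grid1 (0.074) in hypothalamus IP against input, the regional difference of Grin2a (-0.44), and the IP against input ratios of Grin2a to Grin2b (-0.041) and Grid1 to Grin1 (0.23). The number of subunits called in hypothalamus IP against input was 1, and became 0 with no filter, with the 2 groups alone and without the libraries numbered 1, and 2 with DESeq2 and limma-voom. Over all genes, 5867 of 23589 passed there with no filter, 4834 of 17042 with the 2 groups alone and 5655 of 18330 without the libraries numbered 1. DESeq2 called 7007 and limma-voom 6727 of 18128 genes. For midbrain IP against input the number of subunits called was 0, and 1 without the libraries numbered 1. Between the IPs it was 0, and became 1 with DESeq2 and 2 without the libraries numbered 1.

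With the replicate block, 2 subunits passed in midbrain IP against input (Grin3a at 0.58 and Grid1 at 0.61, against 43.9% of genes tested), also with the block within region, and 5 passed between the IPs (Grin1, Grin2b, Grin2c, Grin2d and Grid1, against 11.2%). Same-numbered midbrain IP and input shared a sequencing lane, while the IPs of the 2 regions did not; what else a number stands for is not given by the labels. Over all pairs of groups every same-number correlation (0.0453 to 0.318) was above every different-number one (-0.179 to 0.0390). The block changed no call in hypothalamus IP against input, between the inputs or for the regional difference. Over all genes it moved the calls between the IPs from 773 to 2024, between the inputs from 291 to 1097 and for the regional difference from 14 to 105; DESeq2 called 1800, 777 and 213, and fits of the 2 groups alone called 196 between the IPs.

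Leaving out 1 library at a time kept 445 fold changes of single subunits on the same side of 0 and of the threshold and turned the sign of 25. The number called ran from 0 to 1 in hypothalamus IP against input and from 0 to 2 between the IPs. In hypothalamus IP against input the ranges that crossed 0 were -0.33 to 0.64 for Grin1, -0.74 to 0.74 for Grin2a, -0.46 to 0.10 for Grin2b, -0.94 to 0.12 for Grin2d, -0.22 to 0.70 for Grin3a and -0.60 to 0.51 for Grid1. In midbrain IP against input they were -0.026 to 0.32 for Grin2b and -0.85 to 0.012 for Grin2c. For the regional difference they were -0.76 to 0.21 for Grin1, -0.59 to 0.89 for Grin2a and -0.85 to 0.17 for Grin3a, and between the inputs -0.62 to 0.39 for Grin3a and -0.79 to 0.14 for Grid1. Of the ratios of IP against input, Grin2a to Grin2b ran from -0.20 to 0.25, Grin2d to Grin2b from -0.037 to 0.25, Grin3a to Grin1 from -0.062 to 0.18 and Grid1 to Grin1 from -0.15 to 0.070. Of those between regions, the summed GluN2 genes to Grin1 ran from -0.028 to 0.11, and Grin2a to Grin2b (-0.85 to -0.40) and Grin2c to Grin2b (-2.92 to -1.42) passed only without hypothalamus IP 1. Both then had an exact p of 0.005 and an adjusted p of 0.03, because they reached that p together. With all libraries Grin2c to Grin2b had the same exact p of 0.005, adjusted to 0.06. The cause of the changes on leaving out a library was not tested.

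Library size alone moved the median of all genes to -0.25 and -0.13 in IP against input of the hypothalamus and midbrain. With at most 30 reads in any library, Grin3b was the least precisely measured subunit.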
